A study of Mus musculus with 21 samples.

Results

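Genes for translocation into the endoplasmic reticulum (ER), folding there and quality control of the folded protein were compared between the subcommissural organ (SCO) and the hippocampus of newborn mice. The 55 members were chosen by gene symbol from a list of ER proteins. This choice, and that of the lists used below, was made with earlier results of these data known. All 55 members were found among the 31883 genes in the deposited table. Of them 54 passed the filter on low values, which asked that SCO or hippocampus reach a mean of 1 and kept 28150 genes in all. Cdnf, a neurotrophic factor of the ER, did not pass: it had no read in the 4 SCO libraries and values of 4.13 and 0.381 in hippocampus replicates 3 and 5 alone.

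The SCO is a gland of modified ependyma at the dorsal midline of the brain that secretes glycoproteins into the cerebrospinal fluid. The libraries used were 4 of SCO and 5 of hippocampus from C57BL/6 mice on postnatal day 0, with no treatment and no altered allele named in the labels. The series also has 12 samples of day 60, not analysed here. Whether each sample came from its own animal is not in the labels, so the p-values cover the spread between samples only, part of which may be technical. In these bulk samples fewer cells of a type and less RNA per cell cannot be told apart.

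A secreted protein enters the ER through the Sec61 channel, guided by a signal peptide that the signal peptidase complex removes. Inside, the Hsp70 chaperone BiP, the Hsp90 chaperone GRP94, the lectin chaperones calnexin and calreticulin and the disulphide isomerases fold it. Resident chaperones that escape to the Golgi are brought back by the KDEL receptors, and proteins that fail to fold are returned to the cytosol for degradation. When unfolded protein builds up, the sensors IRE1 and PERK (encoded by Ern1 and Eif2ak3) start the unfolded protein response, which raises the expression of many of these genes. Secretory cells are known for a large ER and high levels of this machinery.

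The libraries held 35379988 to 64242533 recovered reads in SCO and 36787949 to 151009954 in hippocampus. Markers of the SCO were higher in the SCO libraries for 10 of 14 genes tested and took 0.112 to 0.170% of reads there, against 0.00282 to 0.00619% in hippocampus. Markers of hippocampal and cortical excitatory neurons were lower for 10 of 14. Other cells moved with the tissue too: markers of ependymal cells were higher for 7 of 16, of habenular, thalamic and pretectal neurons for 10 of 17, of red blood cells for 4 of 7, of microglia for 2 of 15, of choroid plexus for 2 of 14 and of endothelial cells and pericytes for 1 of 16. The share of reads of the endothelial and pericyte list was 0.0835 ± 0.0116% (SD, n = 4 SCO libraries) against 0.0478 ± 0.0112% (SD, n = 5 hippocampus libraries), with no overlap. Of the pineal list limma called 0 of 7 higher and 1 lower, and DESeq2 called 1 higher and 1 lower. That list took 0.0155% of reads in SCO replicate 1 and 0.00100 to 0.00369% in the other SCO libraries. In hippocampus it took 0.00914 to 0.0205%. Its genes Bsx and Isl2 had no read in hippocampus, and Crx had none in SCO. Plasma cells, another secretory type with much of this machinery, had 0 of 8 markers called by limma (1 at an unadjusted p under 0.05, 0 called by edgeR and 1 by DESeq2), with Jchain at 0 reads in SCO and Mzb1 at 0 in hippocampus. The microglial list took 0.0874 to 0.112% of reads in SCO and 0.0364 to 0.0528% in hippocampus, and the choroid plexus list 0.0208 to 0.345% and 0.0017 to 0.0250%, highest in SCO replicate 4. The part of these cells in the results below was not tested.

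One library stood apart for the members. Hippocampus replicate 2 was the lowest hippocampus library for 27 of the 54 members and the highest for 17. Its deviation from the other hippocampus libraries went with coding length: the median was 1.00 on the log2 scale for the 18 members with the shortest coding sequence (up to 0.741 kb) and -0.92 for the 18 with the longest (1.55 to 4.65 kb). Spearman's rho between deviation and coding length was -0.41 across the 54 members and -0.27 across 13409 genes. With exon length it was weaker, -0.19 across the members. SCO replicate 1, set against the other SCO libraries, had a rho of -0.30 with coding length across the members. The points are genes of 1 library and not independent, so this is a description. Without hippocampus replicate 2, the fold change of 26 of the 54 members moved by over 1.5 times or changed sign. None of these 26 was called with all libraries. For those described most closely the value without it is given too.

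**Figure D1:**
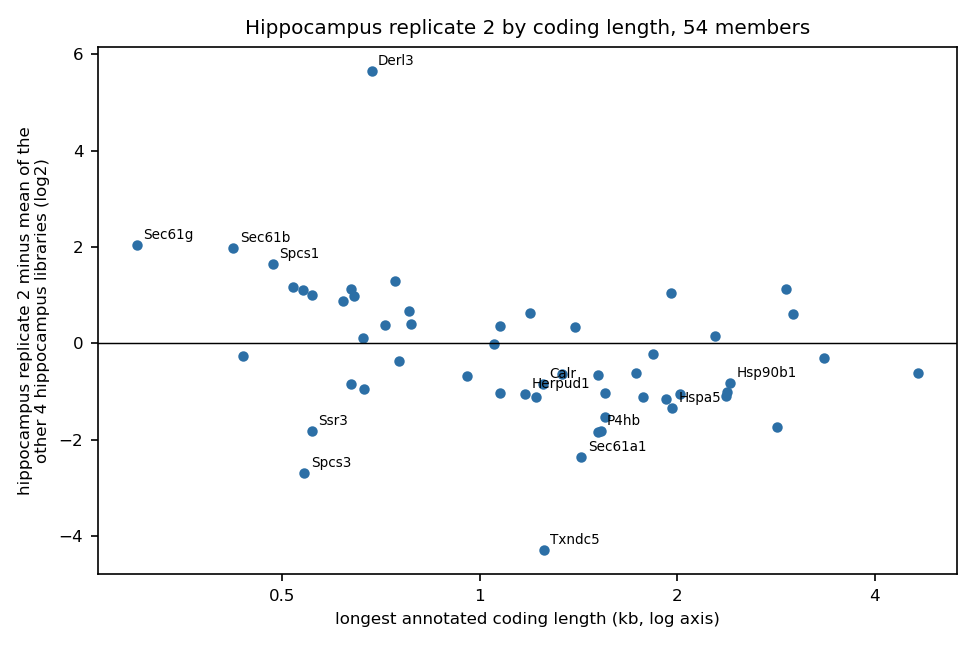
Each point is 1 of 54 members; the x axis is the longest annotated coding length in kb (log axis) and the y axis is log2(normalized count + 1) in hippocampus replicate 2 minus the mean of the other 4 hippocampus libraries. Short members such as Sec61g and Sec61b lie above 0, and most longer members, such as Hspa5 and P4hb, lie below 0.

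Values are normalized counts, read counts divided by 1 size factor per library, and fold changes are SCO minus hippocampus on log2(value + 1). A gene was called where limma's adjusted p, by Benjamini-Hochberg over all 28150 genes, was under 0.05. Kdelr3, Hsp90b1, Sil1 and Herpud1 rose in SCO and Sec11c fell. These are 4 of 54 members called higher, where 1.71% of all genes were, and 1 called lower, where 1.34% were. Of the 54 members 42 had a positive fold change, with a median of 0.39, while the median of all genes tested was -0.04. The SCO libraries lay wholly above the hippocampus libraries for 11 members (4.78% of all genes did so) and wholly below for 2 (3.75% of all genes). At an unadjusted p under 0.05, 14 members were higher (25.9%, beside 8.33% of all genes) and 2 lower (3.70%, beside 7.14%).

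The count of calls differed with the test. At an adjusted p under 0.05, 7 members were higher and 1 lower in the authors' deposited table, where 6.98% and 5.69% of genes with an adjusted p were. DESeq2 run on the recovered reads gave 7 and 1 as well, against 7.06% and 5.75% of genes. EdgeR's quasi-likelihood test on those reads gave 3 and 0, against 1.07% and 0.721%, with 11 members higher and 2 lower at an unadjusted p under 0.05. Summed over all members, the genes took 0.833 to 0.902% of reads in SCO and 0.570 to 0.701% in hippocampus, with no overlap. Members with many reads weigh most in this sum. By role, the shares were wholly higher in SCO for the Hsp70 and Hsp90 chaperones with their helpers, the degradation genes and the cargo and KDEL receptors. They overlapped for the lectin chaperones, disulphide isomerases, translocation genes and signal peptidase genes, and were wholly lower for the stress sensors.

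**Figure D2:**
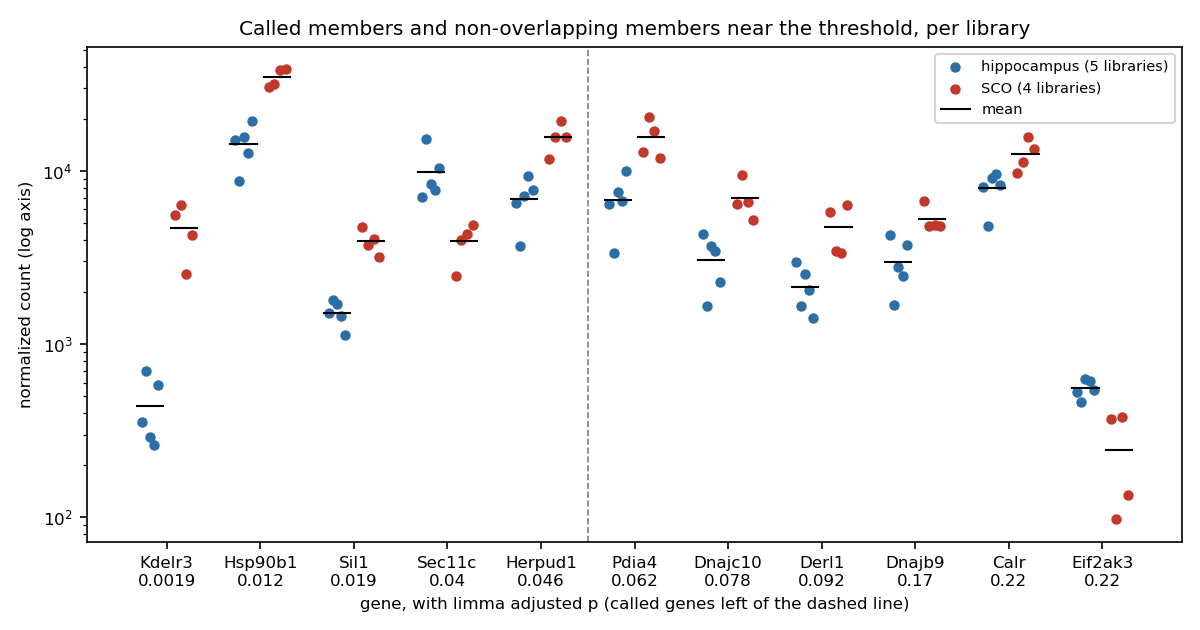
Normalized counts (log axis) of the 5 called members and of the 6 members that were not called but did not overlap between tissues with an adjusted p under 0.25; points are libraries, 5 of hippocampus in blue and 4 of SCO in red, and bars are means. The widest gap is that of Kdelr3, with every SCO library at 2533 or more and every hippocampus library at 702 or less.

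Kdelr3 encodes one of the KDEL receptors, which carry ER residents with a KDEL-type tail back from the Golgi (Ensembl ENSMUSG00000010830.8, GRCm38 chr15:79516411-79527739, plus strand). It held 5579, 6366, 2533 and 4270.2 normalized counts in SCO replicates 1 to 4. In hippocampus replicates 1 to 5 it held 353, 702, 289.9, 260.0 and 583. All SCO libraries lay above all hippocampus libraries, and SCO replicate 3 was the lowest of its tissue. The means were 4687 ± 1676 (SD, n = 4) and 438 ± 194 (SD, n = 5), a 10.7-fold difference, and the log2 fold change came to 3.45 (SE 0.43, limma adjusted p = 0.00188). With each library left out in turn the call held, with an adjusted p of 0.00187 to 0.00853.

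The other KDEL receptor genes did not pass the test. Kdelr2 held 5021, 4989, 4124 and 4515 in SCO replicates 1 to 4 and 4106, 8051, 3804, 2961 and 3995 in hippocampus replicates 1 to 5. Hippocampus replicate 2 was the highest of all, and the tissues overlapped (log2 fold change 0.11, SE 0.29, limma adjusted p = 0.877, and 0.33 without that library). Kdelr1 held 758, 945, 1819 and 1489 in SCO and 962, 614, 1143, 1232 and 1075 in hippocampus, which also overlapped (0.27, SE 0.38, limma adjusted p = 0.737, and 0.10 without hippocampus replicate 2). Per kilobase of exon, Kdelr3 made up 55.7, 58.3, 35.8 and 48.1% of the 3 receptor genes in SCO replicates 1 to 4 and 7.10 to 13.0% in hippocampus. Kdelr2 made up 35.2 to 44.9% in SCO and 65.8 to 84.2% in hippocampus. The order of the levels of Kdelr2 and Kdelr3 was therefore Kdelr2 first in every hippocampus library and in SCO replicate 3, and Kdelr3 first in the other SCO libraries.

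**Figure D3:**
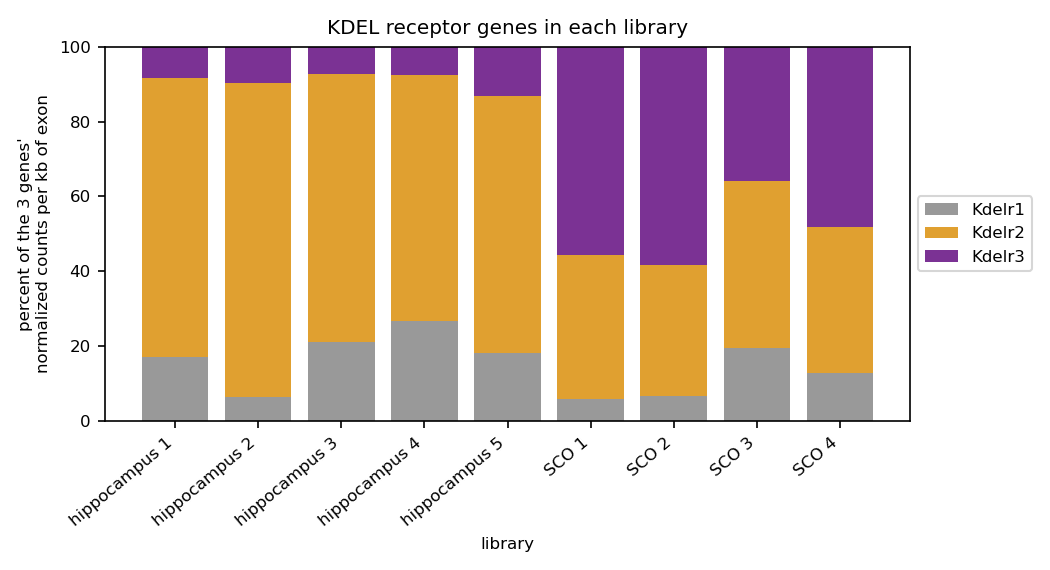
Stacked bars give, for each of 9 libraries, the percent that Kdelr1 (grey), Kdelr2 (yellow) and Kdelr3 (purple) make up of the 3 genes' normalized counts per kb of exon. Kdelr3 takes 35.8 to 58.3% in the SCO libraries and 7.10 to 13.0% in the hippocampus libraries.

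The remaining members that carry cargo out of the ER were not called. Lman1 and Mcfd2 form the receptor for coagulation factors and other glycoproteins, and Lman2 is a related lectin. Their log2 fold changes ran from 0.15 for Mcfd2 over 0.43 for Lman2 to 0.99 for Lman1 (SE 0.38, limma adjusted p = 0.232). All 6 receptor genes had a positive fold change, and 1 was called.

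Hsp90b1 encodes GRP94, the ER's Hsp90 chaperone (ENSMUSG00000020048.13, GRCm38 chr10:86690209-86705509, minus strand). It held 30690.4, 31608, 38292 and 38538 normalized counts in SCO replicates 1 to 4. In hippocampus replicates 1 to 5 it held 15028, 8728, 15635, 12656 and 19361. The lowest SCO library was above the highest hippocampus library, and hippocampus replicate 2 was the lowest of all. Mean values were 34782 ± 4213 (SD, n = 4) and 14282 ± 3927 (SD, n = 5), and the log2 fold change came to 1.32 (SE 0.23, limma adjusted p = 0.012). The call held with each library left out in turn, with an adjusted p of 0.00411 to 0.0405 and a fold change of 1.16 to 1.45.

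Hspa5 encodes BiP, the ER's Hsp70 chaperone and, by mean level per kilobase of exon, the highest of its class in both tissues. It held 34221, 43579, 46282 and 30979 in SCO replicates 1 to 4 and 34649, 12277, 28994, 26324 and 35510.2 in hippocampus replicates 1 to 5. The tissues overlapped: hippocampus replicates 1 and 5 were above SCO replicates 1 and 4, and hippocampus replicate 2 was far below all others. The log2 fold change came to 0.57 (SE 0.30, limma adjusted p = 0.414), and to 0.30 without hippocampus replicate 2. Per kilobase of exon, the ratio of Hsp90b1 to Hspa5 was 0.761 to 1.30 in SCO and 0.455 to 0.746 in hippocampus, with no overlap.

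Of the helpers of BiP, Sil1 alone was called by limma. It encodes a nucleotide exchange factor that lets BiP release its client. It held 4768, 3719.6, 4061 and 3177 in SCO replicates 1 to 4 and 1512, 1803, 1713, 1444 and 1127 in hippocampus replicates 1 to 5. Every SCO library was above every hippocampus library, and SCO replicate 1 was the highest. The log2 fold change came to 1.37 (SE 0.26, limma adjusted p = 0.0186). The call ended without SCO replicate 1 (adjusted p = 0.0565) and without SCO replicate 3 (adjusted p = 0.0538).

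Dnajc10 and Dnajb9, J-domain co-chaperones that hand clients for degradation to BiP, did not overlap between tissues but were not called. Dnajc10, which also reduces disulphide bonds, held 6479.8, 9524, 6646 and 5178 in SCO and 4337, 1649, 3672, 3431 and 2284 in hippocampus. The log2 fold change came to 1.23 (SE 0.33, limma adjusted p = 0.0779). Dnajb9 held 6704, 4802, 4905 and 4778 in SCO and 4293, 1682, 2795, 2489 and 3734 in hippocampus. SCO replicate 1 stood above the other SCO libraries, which lay close together (0.88, SE 0.30, limma adjusted p = 0.173).

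Hyou1 had the lowest fold change of all members by limma on log2(value + 1), which was not so in the authors' deposited table. It encodes GRP170, a large Hsp70 relative that, like Sil1, acts as an exchange factor for BiP. It held 16.4, 444, 776 and 25.7 in SCO replicates 1 to 4 and 468, 545, 272, 374 and 339 in hippocampus replicates 1 to 5. The SCO libraries split, 2 above 400 and 2 below 30, while the hippocampus libraries were within 272 to 545. The log2 fold change of -1.79 had an SE of 1.11 (limma adjusted p = 0.501), although the means, 316 and 399.8, were close. In the authors' deposited table its log2 fold change was -0.34. Lower there were Cdnf (-1.99), Sec11c (-1.32), Ern1 (-1.32), Eif2ak3 (-1.19), Sec61g (-0.77), Manf (-0.61), Spcs1 (-0.52) and Edem1 (-0.43). The other members of the class were Dnajb11, Dnajc3, Sdf2l1 and Manf, with fold changes from -0.54 (Manf, a stress-induced secreted factor) to 1.20 (Dnajc3, a co-chaperone), and limma called none of the 4. Of the 10 chaperones and helpers tested, 2 were called higher and 8 were positive, with a median of 0.72.

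The lectin chaperones hold glycoproteins that still carry a terminal glucose. Calr, calreticulin, held 9683, 11231, 15684 and 13313 in SCO replicates 1 to 4 and 8054, 4834, 9090.3, 9583 and 8318 in hippocampus replicates 1 to 5. The tissues did not overlap, by a margin of 9683 over 9583, and the gene was not called (0.66, SE 0.25, limma adjusted p = 0.219). Canx, calnexin, held 13723, 10439.6, 21187 and 16222 in SCO and 11974, 5941, 17032, 10793 and 12776 in hippocampus. The tissues overlapped (0.43, SE 0.31, limma adjusted p = 0.575), and the fold change was 0.20 without hippocampus replicate 2. Uggt1, which puts the glucose back on misfolded glycoproteins, had a fold change of -0.36 (SE 0.49) with SCO replicate 3 at 786 and the other SCO libraries at 3389.8 to 4603.

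None of the 9 disulphide isomerases and relatives was called by limma, 4 were higher at an unadjusted p under 0.05, and 8 of 9 were positive with a median of 0.46. EdgeR called 0 of them and DESeq2 called 1, Pdia4. Pdia4, an isomerase with several thioredoxin domains, held 12940.1, 20574, 17065 and 11905 in SCO and 6417, 3368, 7527, 6726 and 9988 in hippocampus. The tissues did not overlap, and hippocampus replicate 2 was lowest (1.25, SE 0.31, limma adjusted p = 0.0623). Without hippocampus replicate 2 it was called at 1.01 (limma adjusted p = 0.0385), and without hippocampus replicate 5 at 1.41 (limma adjusted p = 0.0476). In the authors' deposited table its log2 fold change was 1.20, with an adjusted p of 0.00475.

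Pdia3, the isomerase that works with calnexin and calreticulin, held 43213, 57893, 21049 and 57673 in SCO and 27986, 16389, 25066, 21826 and 29253 in hippocampus. SCO replicate 3 lay inside the hippocampus range and the other SCO libraries above it (0.82, SE 0.31, limma adjusted p = 0.216). Without SCO replicate 3 Pdia3 was called, at 1.15 (limma adjusted p = 0.0343). P4hb, which encodes protein disulphide isomerase itself, held 12076, 14261, 16452 and 15854 in SCO and 11270.1, 4023, 13099.9, 16578 and 16479.9 in hippocampus. The tissues overlapped, with hippocampus replicate 2 well below the rest. The fold change of 0.40 (SE 0.39, limma adjusted p = 0.646) was 0.04 without that library and -0.0022 with SCO replicate 4 and hippocampus replicate 2 both left out. Pdia6 had the fold change closest to 0, -0.00040 (SE 0.19), and was at -0.13 without hippocampus replicate 2. The others, Pdia5, Txndc5, Erp29, Erp44 and Creld2, ran from 0.22 to 1.26. Txndc5, whose fold change of 0.46 was -0.40 without hippocampus replicate 2, was uneven, at 14.6 in SCO replicate 3 and 18.2 in hippocampus replicate 2 and at 189.5 to 1282 in the other libraries.

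**Figure D4:**
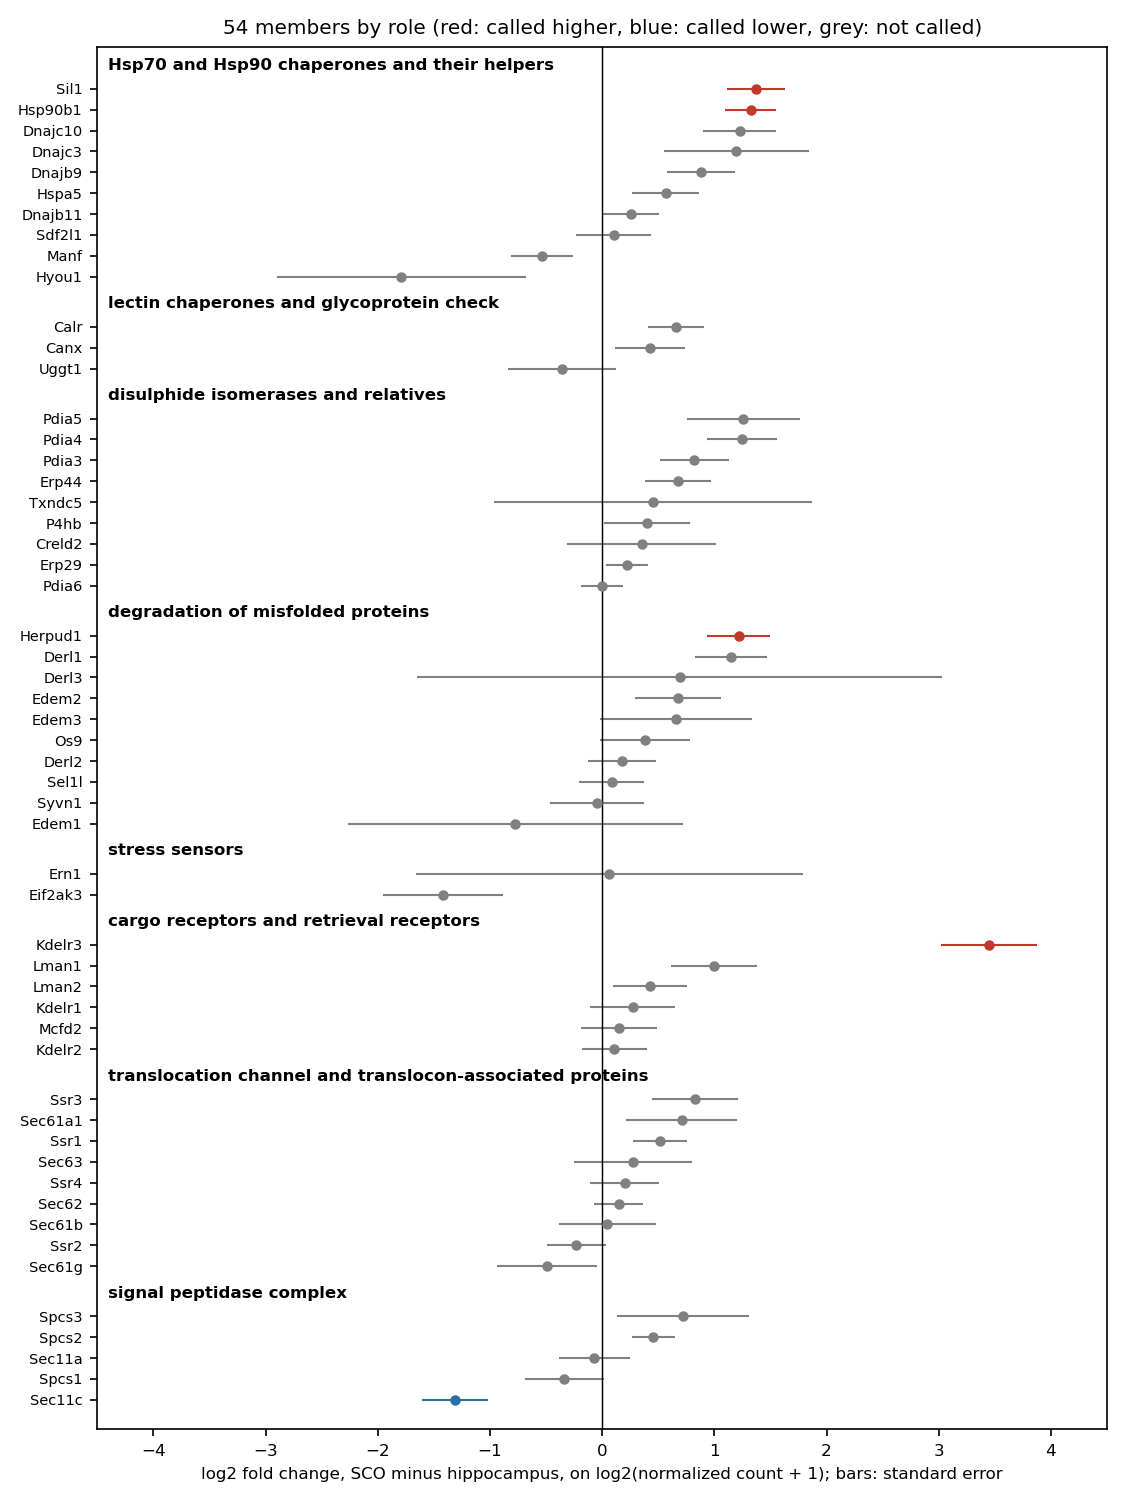
Log2 fold change of each of 54 members, SCO minus hippocampus on log2(normalized count + 1), with bars for the standard error, grouped by role; red marks 4 members called higher, blue 1 called lower and grey those not called. Most points lie to the right of 0 in every role but the stress sensors and the signal peptidase complex, and Derl3, Ern1, Edem1 and Txndc5 have the widest bars.

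Among genes for the degradation of misfolded proteins, Herpud1 rose. It encodes a membrane protein that gathers the degradation complex and is itself a known target of the unfolded protein response (ENSMUSG00000031770.16, GRCm38 chr8:94386438-94395377, plus strand). It held 11669, 15729, 19439 and 15635 in SCO replicates 1 to 4 and 6528, 3694, 7135, 9409 and 7795 in hippocampus replicates 1 to 5. Every SCO library was above every hippocampus library. The log2 fold change came to 1.22 (SE 0.28, limma adjusted p = 0.046). The call was close to the threshold: it ended in 7 of the 9 fits that left out 1 library, those without any 1 of the SCO replicates or without hippocampus replicate 1, 3 or 5, with an adjusted p of 0.0577 to 0.127. The fold change was 1.01 to 1.35 over the 9.

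Derl1, a channel component for the return to the cytosol, held 5809.8, 3469, 3359 and 6366 in SCO and 2985, 1667, 2525, 2060.5 and 1416 in hippocampus. The tissues did not overlap, and the SCO libraries fell into a higher and a lower pair (1.15, SE 0.32, limma adjusted p = 0.0922). In the authors' deposited table its adjusted p was 0.00577 and that of Dnajc10 0.00666. Sel1l, the adaptor of the ubiquitin ligase, held 7829, 9865, 7096 and 6602 in SCO and 6905, 3995, 10632, 7902 and 8995 in hippocampus. The tissues overlapped, and the fold change of 0.09 (SE 0.29, limma adjusted p = 0.903) was -0.13 without hippocampus replicate 2 and -0.03 without SCO replicate 2.

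Syvn1, the ligase, was at -0.04 and the lectin Os9 at 0.38. Edem1, Edem2 and Edem3, which trim mannose from failing glycoproteins, were at -0.77, 0.67 and 0.66, and Derl2 at 0.18. Without hippocampus replicate 2 Os9 was at 0.17 and Edem3 at 0.31. Derl3, a derlin known from secretory cells, held 71.6, 201, 0.913 and 0 in SCO and 0, 183, 0, 179 and 0 in hippocampus, with libraries at or near 0 in both tissues. Its fold change of 0.69 was 1.82 without hippocampus replicate 2 and -0.08 in the authors' deposited table. Of the 10 degradation genes 8 were positive, with a median of 0.52, and 1 was called.

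Neither stress sensor gene was called. Eif2ak3, which encodes PERK, held 367, 97.5, 379 and 134 in SCO replicates 1 to 4 and 532, 466, 633, 609 and 543 in hippocampus replicates 1 to 5. All SCO libraries lay below all hippocampus libraries, and the gene was not called (-1.42, SE 0.53, limma adjusted p = 0.222). Ern1, which encodes IRE1, was low in both tissues, at 13.4, 5.91, 13.7 and 72.8 in SCO and 0, 31.4, 149.6, 149 and 1.14 in hippocampus. The values overlapped over their whole range (0.06, SE 1.72, limma adjusted p = 0.99). Its direction differed between settings. The fold change was 0.29 without hippocampus replicate 2, -0.39 with a pseudocount of 5 and -1.35 in edgeR.

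The translocation channel and the proteins around it had no call among 9 genes by limma, edgeR or DESeq2, and in limma 0 of 9 had an unadjusted p under 0.05. Sec61a1, the channel's pore subunit, held 5344, 7791, 6926 and 5669 in SCO and 4239, 1047, 6001, 6143 and 5469 in hippocampus. Hippocampus replicate 2 was far below the other libraries, which overlapped between tissues (0.71, SE 0.49, limma adjusted p = 0.548). Without it the fold change was 0.23. Sec61b, a small subunit, held 7884, 4869.8, 6164 and 4700.0 in SCO and 3776, 16718, 5246, 4636 and 3557 in hippocampus. Here hippocampus replicate 2 was far above the rest (0.05, SE 0.43, limma adjusted p = 0.967), and without it the fold change was 0.44. Sec61g, the remaining subunit, had the lowest fold change of the class, -0.49. Its value was 10494 in hippocampus replicate 2 and 2215 to 2896 in the rest of that tissue, and without that library the fold change was -0.09. Ssr3, a translocon-associated subunit, had the highest, 0.83 (SE 0.38, limma adjusted p = 0.333), and did not overlap between tissues; it was at 0.46 without hippocampus replicate 2. Ssr1, Ssr2, Ssr4, Sec62 and Sec63 lay between -0.23 and 0.51, and without that library between -0.03 and 0.43.

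Of the signal peptidase complex, Sec11c, a catalytic subunit, was called lower. It held 2457, 3993, 4333 and 4890.3 in SCO replicates 1 to 4 and 7094, 15367, 8442, 7740.2 and 10399 in hippocampus replicates 1 to 5. All SCO libraries lay below all hippocampus libraries, with hippocampus replicate 2 the highest. The log2 fold change came to -1.31 (SE 0.29, limma adjusted p = 0.0404). The call ended with any 1 library left out except hippocampus replicate 2, with an adjusted p of 0.0534 to 0.0926. Without hippocampus replicate 2 the adjusted p was 0.0383, and over the 9 fits the fold change was -1.43 to -1.10.

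Sec11a, the other catalytic subunit, was at -0.07 (SE 0.32, limma adjusted p = 0.93), and at 0.19 without hippocampus replicate 2. Per kilobase of exon, Sec11c made up 11.7, 25.4, 26.5 and 23.8% of both catalytic genes in SCO replicates 1 to 4 and 33.4 to 42.6% in hippocampus. The accessory subunits Spcs1, Spcs2 and Spcs3 were at -0.34, 0.46 and 0.72. Without hippocampus replicate 2, which held 36446 of Spcs1 and 751 of Spcs3, Spcs1 was at -0.0083 and Spcs3 at 0.18. Spcs2 was called without hippocampus replicate 2, at 0.59 (limma adjusted p = 0.0328), and that library held 36833 of it, where the other hippocampus libraries held 21848 to 23919.7.

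**Figure D5:**
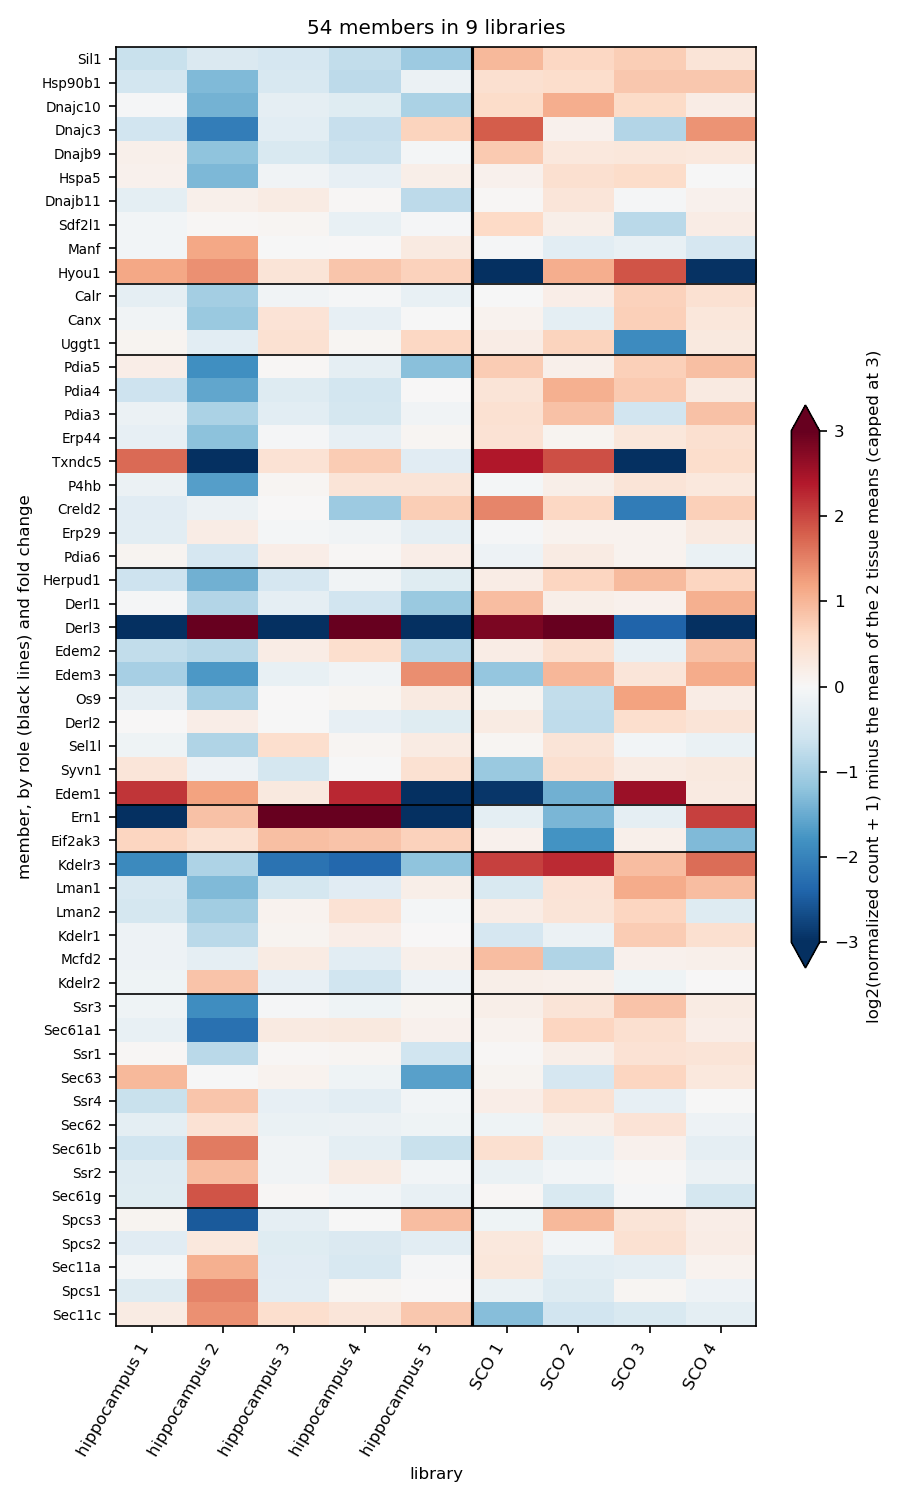
Each row is 1 of 54 members, ordered by role and fold change, and each column 1 of 9 libraries; color gives log2(normalized count + 1) minus the mean of the tissue means, capped at 3. Rows such as Kdelr3 and Sil1 are blue in all hippocampus and red in all SCO libraries, the column of hippocampus replicate 2 departs from its tissue in many rows, and SCO replicate 3 is low for Pdia3, Dnajc3, Creld2, Uggt1 and Txndc5.

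Many promoters of ER chaperone genes carry the ER stress element, a site of the unfolded protein response. It was searched as CCAAT, 9 bases of any kind and CCACG on both strands, in windows from 250 bases before to 50 after the gene's start that RefSeq gives on GRCm38.p6. Of the members 44 had a window; Erp29, Sil1, Hyou1, Manf, Derl1, Lman1, Kdelr2, Ssr2, Sec61a1, Sec11c and Spcs3 had none in the table. The element was in 9 of 44 members (20.5%) and in 0.137% of all 27025 genes with windows of that length. It was described from genes of this kind, so its frequency among them is background and not a finding of these libraries. The matches are given because they are what these members share in sequence, with the fixed bases in capitals, 5′ to 3′ in the direction of the element.
Hspa5, 65 bases before the start: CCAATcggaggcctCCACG
Hsp90b1, 212 bases before the start: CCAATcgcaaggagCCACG
Hsp90b1, 107 bases before the start, opposite strand: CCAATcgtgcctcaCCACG
Calr, 162 bases before the start, opposite strand: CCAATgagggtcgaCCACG
Canx, 145 bases before the start: CCAATcaccacgctCCACG
Pdia6, 98 bases before the start: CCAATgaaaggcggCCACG
Dnajc3, 105 bases before the start: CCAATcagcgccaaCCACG
Creld2, 126 bases before the start, opposite strand: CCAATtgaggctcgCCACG
Syvn1, 44 bases before the start: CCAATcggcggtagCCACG
Derl3, 156 bases before the start, opposite strand: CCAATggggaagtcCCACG

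The fold changes of these 9 genes ran from -0.04 (Syvn1) to 1.32 (Hsp90b1), with a median of 0.57 and 1 called. The other 34 members tested that had a window ran from -1.42 to 3.45, with a median of 0.33 and 2 called. Of the 9 only Hsp90b1 had 2 matches to this exact pattern. Sites that differ from the pattern were not counted, and a link between matches and fold changes was not tested.

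The called genes with a window are shown upstream of their start, on the gene's strand, with matches in capitals. Each stretch ends before the RefSeq start or the first base in GENCODE M21, whichever comes first. For Hsp90b1 that is the GENCODE base. Its distances above were counted from the RefSeq start, which lies further into the gene. The short form, ATTGG, 1 base and CCACG, was in Herpud1 and Dnajb11, 2 of 44 members and 0.0444% of all genes. TGACGTGG was in Kdelr3 and Txndc5, 2 of 44 members and 0.714% of all genes. Where a match is on the opposite strand its reverse complement is in capitals, as for the second element of Hsp90b1 and for Kdelr3. The last bases of TGACGTGG, read on the other strand, overlap in letters with the CCACG of the longer element.
Hsp90b1, chr10:86705510-86705694, minus strand: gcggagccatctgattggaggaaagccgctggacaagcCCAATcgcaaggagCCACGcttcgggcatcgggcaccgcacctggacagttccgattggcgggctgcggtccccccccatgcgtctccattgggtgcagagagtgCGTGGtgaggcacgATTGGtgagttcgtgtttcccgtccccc
Herpud1, chr8:94386179-94386428, plus strand: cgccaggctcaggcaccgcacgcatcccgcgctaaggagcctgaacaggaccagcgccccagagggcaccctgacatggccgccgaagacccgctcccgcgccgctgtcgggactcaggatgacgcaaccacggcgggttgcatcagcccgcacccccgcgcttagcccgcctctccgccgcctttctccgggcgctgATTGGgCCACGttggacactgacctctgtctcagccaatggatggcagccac
Kdelr3, chr15:79516158-79516407, plus strand: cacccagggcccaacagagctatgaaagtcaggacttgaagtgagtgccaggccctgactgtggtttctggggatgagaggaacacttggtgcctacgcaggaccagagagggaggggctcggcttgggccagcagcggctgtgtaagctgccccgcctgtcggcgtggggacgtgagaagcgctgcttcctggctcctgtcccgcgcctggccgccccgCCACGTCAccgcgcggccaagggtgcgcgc

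Other genes of the pathway came from 6 further lists, of which 130 rows could be tested. None was called by limma in either direction, with 23 higher (17.7%, beside 8.33% of all genes) and 4 lower (3.08%, beside 7.14%) at an unadjusted p under 0.05. EdgeR called 0 and DESeq2 9 higher and 2 lower, as in the authors' deposited table. For DESeq2 that is 6.92% and 1.54% of these genes, beside 7.06% and 5.75% of all genes. The median fold change was 0.39 for 23 factors and targets of the unfolded protein response, 0.31 for 12 subunits of the oligosaccharyl transferase, 0.59 for 37 further folding enzymes, 0.06 for 22 further translocation genes, -0.04 for 10 genes of the signal recognition particle and its receptor and -0.05 for 26 further degradation genes, beside -0.04 for all genes.

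The transcription factors of the response were not called. Xbp1, which IRE1 activates by splicing, held 9376, 2995, 463 and 5525 in SCO and 7541, 3828, 1792, 498 and 8581 in hippocampus, a wide spread in both tissues (log2 fold change -0.02, SE 1.00, limma adjusted p = 0.995). Gene counts do not show its splicing. Atf4 was at -0.04 (SE 0.29), and the overlapping entries of Ddit3 were at -0.09 and 0.32.

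Of the genes below the threshold, those named here were chosen after their values were seen. Prdx4, an ER peroxiredoxin, held 4655, 5056, 6059 and 5137 in SCO and 2627, 3325, 3038, 2672 and 2504 in hippocampus, with no overlap (0.88, SE 0.21, limma adjusted p = 0.0529). Ppic, an ER cyclophilin, was at 1.37 (SE 0.35, limma adjusted p = 0.0699). Creb3l4, a membrane-bound transcription factor of secretory cells, held 2909, 4210, 2075 and 764 in SCO and 1.25, 266, 136, 123 and 0 in hippocampus (limma adjusted p = 0.0746). Without hippocampus replicate 2, 5 of the other pathway genes were called higher (Prdx4, Ppic, Serpinh1, Cnpy2 and Tmbim6) and 1 lower (Asns). In that fit 1077 of all 27835 genes tested were called in either direction, beside 859 of 28150 with all libraries.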

How the data were processed

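Bulk RNA sequencing was held for 4 SCO and 5 hippocampus libraries of postnatal day 0. Per the labels' protocols RNA came from the RNeasy Micro Kit and libraries from the TruePrep kit; FastQC, HISAT, HISAT2, featureCounts, DESeq2 and GRCm38 are named in the submitters' processing notes. The annotation, the strandedness and the rule for multi-mapping reads are not given in the sources used, so genes with near-identical copies are uncertain.

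The deposited values are a normalized signal: each library's read counts over its size factor. The deposited table also holds the authors' log2 fold change, its statistic (a score) and their p-value and adjusted p-value, per the file headers. All values (100%) were whole multiples of 1 read's worth within a tolerance of 1e-06, which gave back 35379988 to 151009954 reads per library. The SDs and SEs come from the spread between libraries, and a zero means that no read was counted.

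The test was limma-trend (limma 3.58.1, R 4.3.3) on log2(value + 1), for all genes whose mean reached 1 in SCO or hippocampus, with Benjamini-Hochberg adjustment over 28150 genes and no covariate. On the log2(value + 1) scale the change of low or uneven genes can be smaller or larger than in DESeq2. Ern1 was at 0.06 by limma and -1.32 in DESeq2, and Hyou1 at -1.79 and -0.34. EdgeR 4.0.16 and DESeq2 1.42.0 were run on the recovered reads. The fit was tested on simulated data: a first pass mark, on how many changed genes kept their sign, was narrowly missed and then replaced by checks of bias and of error size, which it passed. Levels per kilobase use the union of exons in GENCODE M21. Protein sequences were not used here.

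The members and all lists were chosen with earlier results of these data known. Values per library are given for called members, for non-overlapping members with an adjusted p under 0.25, for a core gene of each role, and for the 3 highest and 3 lowest fold changes; those of Derl3, and single library values of other members, were added after their values were seen.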

Additional observations from a re-analysis of the deposited data

Results flagged for a closer look

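Each member was examined in each tissue on the log2 scale, 108 groups for 54 members. In 15 groups a library's gap to its nearest neighbour, divided by the range, was over Dixon's critical value. Chance alone gives this in about 1 of 20 groups. Of these, 13 are hippocampus replicate 2, low for 7 members and high for 6. It was low for Hspa5 (12277), Calr (4834), Pdia6 (18875), P4hb (4023), Erp44 (1643), Ssr3 (4219) and Sec61a1 (1047). It was high for Manf (16158), Sec61b (16718), Sec61g (10494), Sec62 (12360), Spcs1 (36446) and Spcs2 (36833). The other library was SCO replicate 1, high for Dnajb9 at 6704 and low for Syvn1 at 431. The values printed here are normalized counts, while the gaps were taken on the log2 scale.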

How the results depend on the processing

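The count of 4 members called higher was 7 with DESeq2, 0 with the replicate block and 2 to 6 with 1 library left out. Calls over all genes, in either direction, changed too. Limma called 859 of 28150 genes with all libraries. With 1 library left out it called from 498 of 27835 (without hippocampus replicate 3) to 1077 of 27835 (without hippocampus replicate 2). The count of 6 members came from the fit without hippocampus replicate 2. The count of 1 called lower was 0 with edgeR, without a filter on low values and with the replicate block, and 0 to 1 with 1 library left out. Other pathway genes called higher, 0 with limma, were 9 with DESeq2, 4 with SCO replicate 4 and hippocampus replicate 2 both left out, 2 with a pseudocount of 5, 1 with a minimum mean of 10, no filter, scaling by total reads or robust moderation, and 0 to 5 with 1 library left out. Those called lower were 2 with DESeq2, 1 with both libraries left out and 0 to 1 with 1 left out. The replicate block called 1 gene of all 28150. The labels share replicate numbers, and same-numbered libraries correlated at -0.029 to 0.019 in their deviations from the tissue means. By the numbers in the column names, hippocampus replicate 4 and SCO replicate 3 share a number and correlated at 0.057. Hippocampus replicate 2 and SCO replicate 2 also share a number there and correlated at -0.025. Such correlations cannot show whether samples were paired, so pairing is unknown and the main fit left it out. Herpud1 also missed the threshold with TMM scaling (adjusted p = 0.055), scaling by total reads (0.052), no filter (0.0615) and edgeR (0.08).

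Among the members with values per library, fold changes that were not called changed sign in some settings. With both libraries left out P4hb was -0.0022, Sel1l -0.055, Ern1 -0.39 and Kdelr1 -0.0084. In edgeR Sel1l was -0.0075, Ern1 -1.35, Kdelr2 -0.0040 and Sec61b -0.23. In DESeq2 4 of all 54 members changed sign: Ern1 was -1.32, Sec61b -0.20, Derl3 -0.08 and Syvn1 0.03. With the replicate block Ern1 was -0.69 and Sec61b -0.12, with TMM Sec61b -0.017, and with a pseudocount of 5 Ern1 -0.39. With 1 library left out Sel1l was -0.13 to 0.22, Ern1 -0.96 to 0.84, Kdelr2 -0.027 to 0.33 and Sec61b -0.12 to 0.44. The cause was not tested.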
